A study of Mus musculus with 8 samples.

Results

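Gene deserts are long stretches of a chromosome that hold no protein-coding gene. Here they are the 50 kb windows on the 19 mouse autosomes whose midpoint lay 500 kb or more from the body of any protein-coding gene of the RefSeq annotation of GRCm38.p6, the assembly behind the mm10 build of the timing data. The rule used gene positions only and no timing value. On the 50 kb grid 4825 windows met the distance, and 784 of them, all in the first 3 Mb of a chromosome, had fewer than 5 scored positions and were left out. The 4041 remaining desert windows cover 202.05 Mb and make up 8.41% of the 48068 autosomal windows with a score, or of 51425 when chromosome X is counted. They were set against 27965 windows that overlap a protein-coding gene body, called windows with genes, which make up 58.2% of the autosomal windows. Joined where they lie between the same bordering genes, the desert windows form 241 deserts.

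Replication timing is the order in which stretches of a chromosome are copied during S phase. Gene-dense, transcribed chromatin is generally copied early, while gene-poor, AT-rich chromatin, much of it attached to the nuclear lamina, is generally copied late. Many deserts flank genes for development or for neuronal adhesion and hold their distant enhancers. YY1, the protein depleted in this study, is a zinc finger transcription factor found at enhancers and promoters, where it can hold distant sites together in loops.

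No protein-coding gene lies in a desert, but RNA genes do. The RefSeq table placed 22 microRNA hairpin genes in 18 desert windows of 13 deserts, with 30 mature names and 25 distinct seeds, of which 3 seeds were shared by more than 1 name. The examples below show microRNAs from deserts, 3 of which recur in the results, with the seed (bases 2 to 8) in capitals, from RefSeq on GRCm38.p6. Both arms of miR-135a-2 come from the desert between Tmpo and Nedd1, one of the latest; miR-125b-5p lies between Usp25 and Cxadr; miR-3961 and miR-6370 lie in the deserts Cetn3 to Mef2c and Ankrd7 to Kcnd2, which had the higher dTAG scores described further on.
miR-135a-5p: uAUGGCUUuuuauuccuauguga
miR-135a-2-3p: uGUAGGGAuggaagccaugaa
miR-125b-5p: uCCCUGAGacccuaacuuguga
miR-3961: uGCCCUCAgcucaguugga
miR-6370: gCAGGAACagcaaaggggaag
miR-135a-5p lies at chr10:92072141-92072163, miR-135a-2-3p at chr10:92072104-92072124 and miR-3961 at chr13:82698278-82698296, all on the minus strand. miR-125b-5p lies at chr16:77646279-77646300 and miR-6370 at chr6:19555438-19555458, both on the plus strand.

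The desert between Gm51483 and Ndn on chromosome 7 holds a cluster of miR-344 genes on the minus strand. Its mature forms are shown because they fall into seed groups, which the capitals mark. The first 4 share the seed GUCAGGC, the next pair AUAUAAC, and the last pair AGGCUUC with an identical mature sequence.
miR-344b-5p: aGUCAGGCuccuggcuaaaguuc
miR-344c-5p: aGUCAGGCugcuggcuagaguac
miR-344d-1-5p: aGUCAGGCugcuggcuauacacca
miR-344d-3-5p: aGUCAGGCuagugguuauacucc
miR-344d-3p: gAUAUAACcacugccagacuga
miR-344e-3p: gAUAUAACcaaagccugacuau
miR-344e-5p: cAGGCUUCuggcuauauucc
miR-344h-5p: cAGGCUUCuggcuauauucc
The windows of all 22 microRNA genes scored below 0, that is late, in all 4 profiles. Their means over the profiles ran from -5.35 at miR-135a-2 to -1.28 at miR-6238, with a median of -3.97.

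Long noncoding RNA genes start in 189 desert windows of 111 deserts, and RefSeq gave a promoter window of 300 bases, 250 before and 50 after the start, for 202 of them. Only 4 of the 202 starts lay in a window with a mean score above 0. Below are 2 of the 3 promoters that lie in desert windows singled out later, with CG dinucleotides in capitals. Gm6602 at chr3:111881653-111881952, plus strand, lies in a window of the desert Prmt6 to Amy2b that scored higher in both dTAG profiles. Gm30113 at chr15:62953966-62954265, plus strand, lies in a window of the desert Myc to Gsdmc that was early in all profiles.
Gm6602: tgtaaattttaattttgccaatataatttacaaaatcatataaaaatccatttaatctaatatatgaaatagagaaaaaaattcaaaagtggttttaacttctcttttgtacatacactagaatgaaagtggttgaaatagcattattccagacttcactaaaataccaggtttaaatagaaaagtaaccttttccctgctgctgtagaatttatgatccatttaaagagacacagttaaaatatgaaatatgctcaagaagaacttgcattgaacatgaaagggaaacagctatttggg
Gm30113: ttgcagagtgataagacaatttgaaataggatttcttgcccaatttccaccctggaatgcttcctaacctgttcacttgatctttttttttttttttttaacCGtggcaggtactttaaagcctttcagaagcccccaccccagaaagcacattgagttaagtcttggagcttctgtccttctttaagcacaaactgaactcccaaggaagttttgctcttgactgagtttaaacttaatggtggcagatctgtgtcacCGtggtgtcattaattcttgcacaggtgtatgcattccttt
Gm6602 has 0 CG dinucleotides and a GC content of 27.7%, and Gm30113 has 2 and 40.7%. Over the 202 desert lncRNA promoters the median GC content was 42% with a median of 2 CG dinucleotides, and 18.8% held none. Promoters of 5649 lncRNA genes that start in windows with genes had a median GC content of 50.3% and 5 CG dinucleotides, and 5.22% held none. The 344 promoters of protein-coding genes that border deserts had a median GC content of 58% and 15 CG dinucleotides, close to the 56.7% and 14 of all 16455 protein-coding promoters in the table. The letters AANATGGC, a form of the sequence YY1 binds, were searched on both strands. They occurred in 15 of the 202 desert lncRNA promoters (7.43%), against 5.15% of the lncRNA promoters in windows with genes. Of the 344 bordering promoters 11 held them (3.20%), against 6.71% of all protein-coding promoters. Over all 25747 promoters the share was 6.2%. Neither printed promoter holds them.

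The profiles come from mouse embryonic stem cells, the self-renewing cells of the early embryo in culture, analysed by Repli-seq. Newly made DNA was labelled with BrdU for 2 h, 40000 cells each were sorted from early and late S phase, and the labelled DNA was sequenced. The 8 samples, an early and a late fraction each, give 2 control profiles and 2 dTAG profiles, here called control 1, control 2, dTAG 1 and dTAG 2. dTAG is a small molecule that sends a tagged protein, here YY1, for degradation, and the cells were taken 2 days after it was added. For culture and treatment the labels point to earlier work, and they do not say which cells or solvent served as control, whether all groups carry the tag, or whether the profiles of a group came from separate cultures. All p-values therefore measure only the spread between these profiles, which may be technical. For dTAG 1 the early and late letters in the sample titles go against the fractions given in the labels. Its profile ran the same way as the others (r = 0.993 with control 1 over the autosomal windows), so each result is given by profile.

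Each profile is a smoothed, quantile-normalised timing score, in arbitrary score units, at 514245 positions spaced 5 kb apart that were scored in all profiles. High scores were read as early, since the direction is not stated: 77 of the 78 windows with ribosomal protein genes scored above 0 in all 4 profiles. Read counts were not used here, so the depth behind a score is unknown. Normalisation gave control 1 and dTAG 1 the same set of values (sorted values within 5.16e-05), and control 2 and dTAG 2 another (within 0.000114), which mirrors the first in sign (within 0.000117). Any score difference between groups is therefore relative to the rest of the genome, and levels are compared between replicate numbers only with care.

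Desert windows replicated late in every profile. Their mean score was -3.30 in control 1, -3.26 in dTAG 1, -3.21 in control 2 and -3.06 in dTAG 2, with an SD over windows between 1.12 and 1.23. Windows with genes averaged 1.41, 1.39, 0.97 and 0.93 in the same order, so deserts minus windows with genes came to -4.71, -4.65, -4.18 and -3.99 score units. The difference had the same sign in all 4 profiles. Only 83, 102, 55 and 110 desert windows scored above 0 (2.05%, 2.52%, 1.36% and 2.72%), whereas 69.5%, 69.1%, 66.4% and 65.7% of the windows with genes did. Between 97.1% and 98.7% of desert windows belonged to the later 50% of the autosomal windows.

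**Figure D1:**
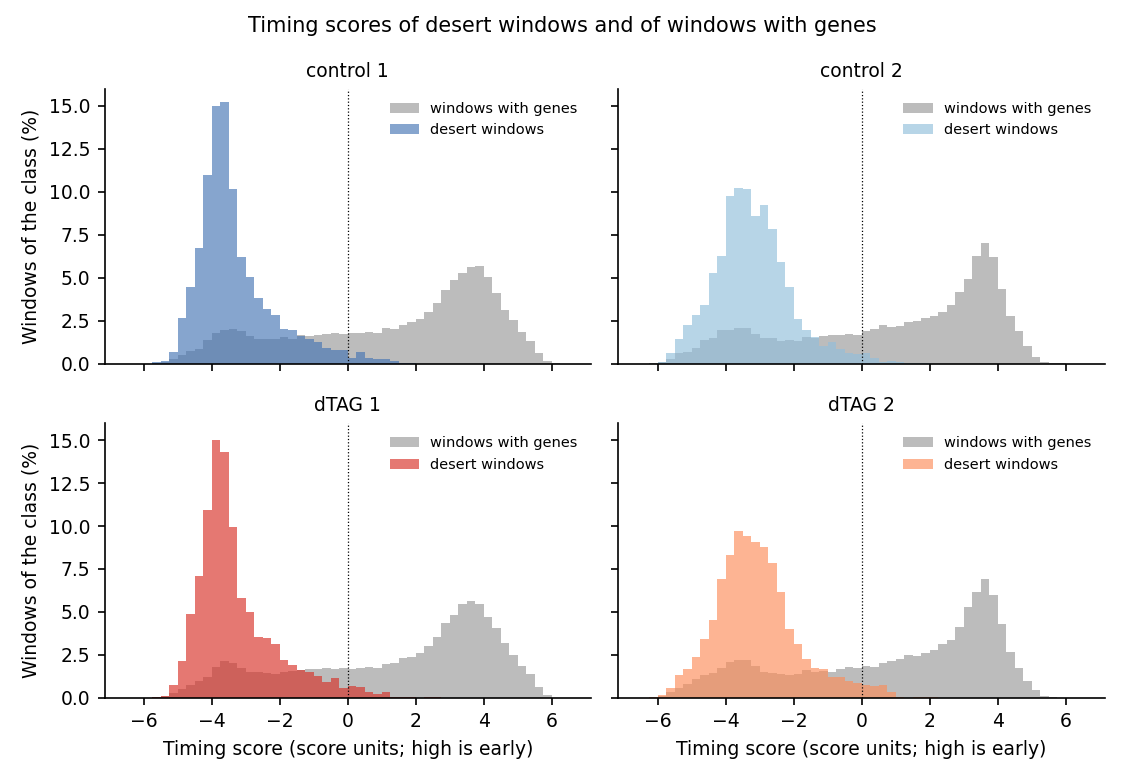
Share of windows (vertical axis, percent of the class) by timing score (horizontal axis, score units, high is early, bins of 0.25) for the 4041 desert windows (colour) and the 27965 windows with genes (grey) in each profile. Desert windows form 1 late peak, with medians of -3.61, -3.58, -3.31 and -3.21 in control 1, dTAG 1, control 2 and dTAG 2, and windows with genes spread over the whole range with most above 0.

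How far deserts filled the very latest part of the genome differed by replicate number. In control 1 and dTAG 1, 38.4% and 38.7% of desert windows lay in the latest 10% of autosomal windows and made up 32.3% and 32.6% of it. In control 2 and dTAG 2 the shares were 19.4% and 17.8%, and deserts made up 16.3% and 15.0% of the latest 10%. Control and dTAG of the same number lay close together here, and both controls and both dTAG profiles differed between the numbers. Within deserts the profiles ranked windows less alike than elsewhere: control 1 and control 2 correlated at r = 0.63 over the 4041 desert windows and at 0.98 over the windows with genes. Control 1 and dTAG 1 correlated at 0.97 in deserts, and control 2 and dTAG 2 at 0.90. These windows share smoothing and libraries, and desert windows span a narrow range of scores.

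Beyond 50 kb from genes the mean timing score was lower with distance, and it levelled off near the 500 kb limit of the rule. With the midpoint inside a gene body it was 1.30, 1.27, 0.85 and 0.79 (control 1, dTAG 1, control 2, dTAG 2), and within 50 kb of one slightly higher, at 1.41, 1.40, 0.99 and 0.98. At 100 to 250 kb it was -1.10, -1.06, -1.65 and -1.59, and at 250 to 500 kb -2.48, -2.41, -2.98 and -2.84. From 500 to 750 kb it was -3.24, -3.19, -3.41 and -3.24. In the 341 windows over 1500 kb from any gene it was -3.33, -3.34, -3.05 and -2.98, with an SD over windows of 0.98 to 1.01. Beyond 750 kb the first replicate number stayed level or slightly later and the other was earlier than at 500 to 750 kb. The 464 windows just inside the limit (500 to 550 kb) averaged -3.08, -3.02, -3.40 and -3.23, and the 521 windows just outside it (450 to 500 kb) -2.99, -2.92, -3.38 and -3.21, so the limit marks no step.

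**Figure D2:**
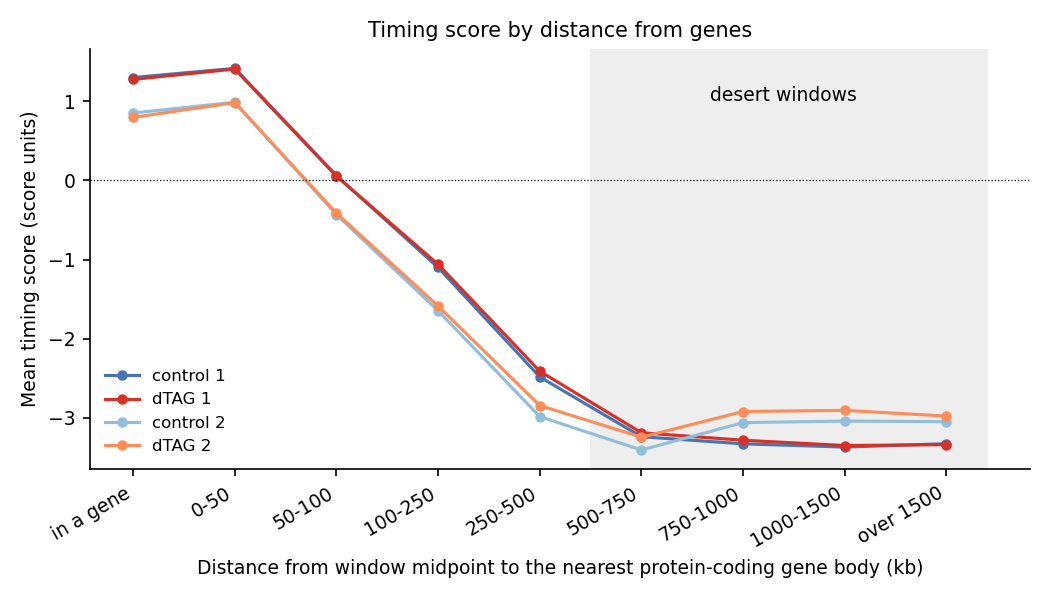
Mean timing score (vertical axis, score units) of autosomal windows by distance from the window midpoint to the nearest protein-coding gene body (horizontal axis, kb, unequal classes), 1 line per profile; the shaded classes are desert windows. The mean is between 0.79 and 1.30 inside genes, slightly higher within 50 kb of them, and lower with each class from there to 500 to 750 kb, where it is between -3.41 and -3.19; beyond that the 2 replicate numbers part.

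Deserts were measured as the distance between the bordering protein-coding genes. The 239 deserts with a gene on both sides spanned 1.02 to 4.54 Mb (median 1.52 Mb), 73 of them over 2 Mb and 27 over 3 Mb, and 2 more reached the start of a chromosome. The mean score of a desert over the profiles ran from -5.04 to 0.82, with a median of -3.41. It was below 0 in 236 of 241 deserts and below -2 in 213. Larger deserts were more alike in timing. The SD over deserts was between 1.30 and 1.42 in the 117 deserts of 1 to 1.5 Mb and between 0.37 and 0.59 in the 27 over 3 Mb. The larger deserts are also means over more windows.

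Size and lateness had no relation of 1 direction. Deserts of 1 to 1.5 Mb averaged -2.91, -2.88, -3.48 and -3.32 in control 1, dTAG 1, control 2 and dTAG 2, and those over 3 Mb -3.36, -3.36, -3.12 and -3.02. Spearman's rho of size with the mean score, over 239 deserts that share libraries and smoothing, was -0.13 in control 1 and -0.12 in dTAG 1, and 0.21 in control 2 and 0.19 in dTAG 2. Its sign was opposite in the 2 replicate numbers and the same in control and dTAG within each. Size showed almost no relation to the difference between dTAG and control (rho 0.00 and 0.04).

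**Figure D3:**
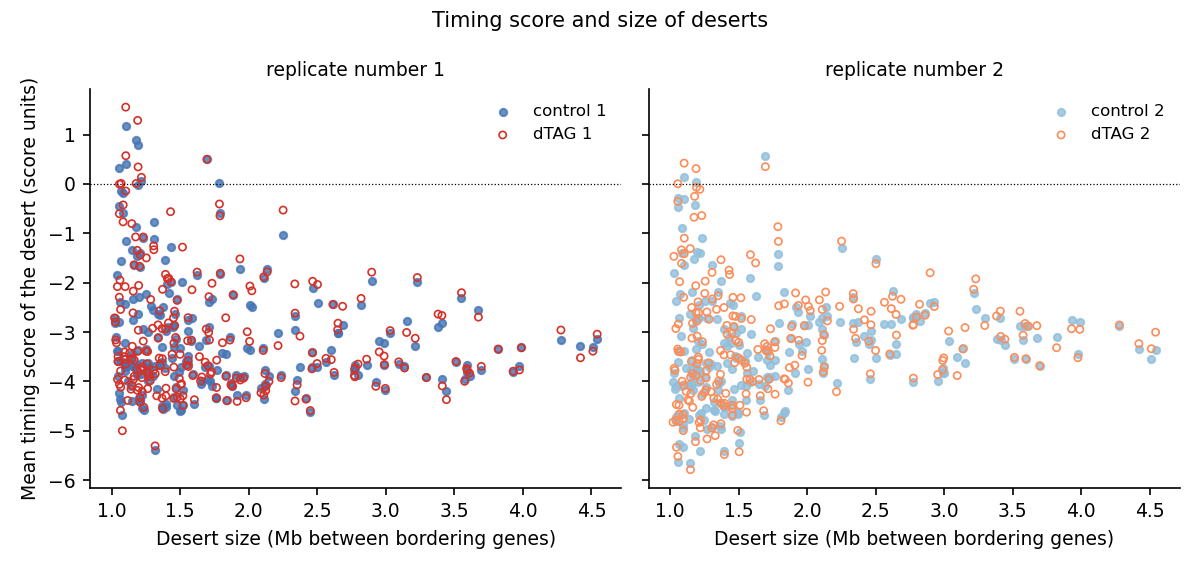
Mean timing score of each of the 239 deserts with a gene on both sides (vertical axis, score units) against its size (horizontal axis, Mb between bordering genes); filled points are controls, open points dTAG, with replicate number 1 on the left and 2 on the right. Small deserts span from about the latest to above 0, whereas the 27 deserts over 3 Mb lie close to the median.

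Genes for neuronal adhesion border 4 of the 5 largest deserts. The largest of all, 4.54 Mb between the protocadherin genes Pcdh20 and Pcdh9 on chromosome 14, holds 71 desert windows and scored -3.14, -3.04, -3.36 and -3.003 in control 1, dTAG 1, control 2 and dTAG 2. Celf4 (an RNA-binding protein) to Pik3c3 (a lipid kinase of autophagy) on chromosome 18 scored -3.29, -3.39, -3.54 and -3.34. Olfm4 to Pcdh17, also on chromosome 14, scored -3.27, -3.52, -3.34 and -3.23. Cntnap5b to Cdh20, a classical cadherin, scored -3.16, -2.96, -2.88 and -2.86. Tenm3, a teneurin, to Aga, a lysosomal enzyme, scored -3.30, -3.32, -2.79 and -2.95. All of these values lay between -3.54 and -2.79, and in none but the first were both dTAG profiles on 1 side of both controls.

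Large deserts were not flat and were not latest at their centre in every case. In the 27 deserts over 3 Mb, windows 1.25 Mb or more from a gene scored 0.06 ± 0.83 higher than windows under 750 kb from a gene in control 1, 0.04 ± 0.995 in dTAG 1, 0.35 ± 0.76 in control 2 and 0.33 ± 0.89 in dTAG 2 (SD over deserts, n = 27). The centre was the earlier of the 2 in 17, 13, 19 and 19 of the 27. Local maxima of the profile, with a rise of at least 1 score unit, occurred inside deserts at 5.89, 5.49, 9.95 and 8.71 per 10 Mb, against 8.52, 7.87, 8.997 and 8.82 in windows with genes. The desert maxima were low, with medians of -2.07, -1.85, -2.07 and -1.88 against 4.04, 3.98, 3.60 and 3.86 in windows with genes. Of the 119 desert maxima of control 1, 79.0% had a maximum of dTAG 1 within 100 kb, 83.2% one of control 2 and 83.2% one of dTAG 2. For the 1192 maxima of control 1 in windows with genes these shares were 76.2%, 72.6% and 68.1%. Matches were counted from control 1 only. Deserts held 201 maxima in control 2 and 176 in dTAG 2, so many of these had no partner among the 119. Most maxima within deserts thus stayed below 0, and most of those of control 1 had a partner in each other profile.

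Of the 445 protein-coding genes that border a desert, 152 scored above 0 at their midpoint, with a median of -1.59, against a median of 3.32 over 20554 autosomal protein-coding genes with a score, 80.8% of them above 0. At their midpoints most of the bordering genes, though not all, were thus late as well. Where neither bordering gene scored above 0 (113 deserts) the median desert score was -3.36, where 1 did (98 deserts) it was -3.61, and where both did (28 deserts) it was -2.39. The desert scored below both of its bordering genes in 119 of 239 deserts and above both in 29.

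Of 75 autosomal genes on a list of neural adhesion and guidance genes, 44 (58.7%) border a desert, against 445 of 20661 protein-coding genes (2.15%). The list was drawn up with earlier results of these data known, from families known for long flanks, so the share is a description. All 75 genes had a median score of -3.63, with 8% above 0, so lateness was not particular to those beside deserts. The 44 had a median score of -3.63 too, and 3 of them scored above 0. Tenm3 was the earliest, at 2.87, 2.96, 1.51 and 1.93 in control 1, dTAG 1, control 2 and dTAG 2. Negr1, an adhesion molecule of neurons, was the latest, at -4.62, -4.01, -5.36 and -4.95. Pcdh20, Pcdh9, Pcdh17 and Cdh20, which border the largest deserts, had means over the profiles of -3.94, -4.69, -3.85 and -3.19.

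Of 83 autosomal genes on a list of developmental transcription factors, drawn up in the same way, 20 (24.1%) border a desert. Over all 83 the median score was 0.54, with 56.6% above 0. The 20 had a median score of -1.11, and 6 of them scored above 0. Sox2, a core pluripotency factor, was the earliest at 4.10, 3.96, 3.85 and 4.19. Its desert, Sox2 to Atp11b, with only 2 desert windows, had the highest mean of all, 1.17, 1.56, 0.13 and 0.42. Zfhx4, a homeodomain zinc finger factor, was the latest at -4.89, -4.64, -4.48 and -4.96. Tmpo, which encodes a lamina-associated protein and is on neither list, scored 3.89 on average and borders one of the latest deserts, so an early gene can lie beside a late desert.

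Among deserts with 5 or more windows the latest were Cdh11 to Cdh5, Zfp608 to Gramd3 and Tmpo to Nedd1. Cdh11 to Cdh5, between a mesenchymal and an endothelial cadherin gene, scored -5.38, -5.31, -4.58 and -4.88 in control 1, dTAG 1, control 2 and dTAG 2. Zfp608 to Gramd3 scored -4.53, -4.29, -5.40 and -5.48. Tmpo to Nedd1, which holds miR-135a-2 and miR-1251, scored -4.58, -4.06, -5.24 and -5.42. Their order followed the replicate number: Cdh11 to Cdh5 was the latest of the 3 in control 1 and dTAG 1 and the least late in control 2 and dTAG 2.

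The earliest deserts with 5 or more windows were Gm36448 to Dad1, Igfbp3 to Tns3 and Myc to Gsdmc. Gm36448 to Dad1 scored 0.50, 0.50, 0.57 and 0.35, and all 14 of its windows hold gene segments of the T cell receptor alpha locus, which the RefSeq table does not class as protein-coding. Igfbp3 (an insulin-like growth factor binding protein) to Tns3 (a focal adhesion protein) scored 0.06, 0.13, -1.40 and -0.11. Myc, a growth-promoting transcription factor, to Gsdmc, a gasdermin, scored 0.01, -0.41, -1.41 and -0.87. The last 2 scored higher in the first replicate number than in the other, in control and dTAG alike. All autosomal windows averaged higher there too (0.28, 0.28, -0.14 and -0.13 in control 1, dTAG 1, control 2 and dTAG 2). These raw differences thus mix scale with timing.

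Only 38 desert windows (0.940%) scored above 0 in all 4 profiles, against 64.2% of windows with genes, and 3898 (96.5%) scored below 0 in all. The 38 lie in 11 deserts. Of them 13 hold antigen receptor gene segments, 10 of these at the T cell receptor alpha locus. Such segments occur in 87 desert windows of 3 deserts, which averaged -1.72, -1.55, -1.67 and -1.43, against -3.33, -3.30, -3.24 and -3.10 in desert windows without them. Leaving out such windows gave 25 early windows. The count was 64 without control 2, and 76 when predicted genes did not count as borders of a desert. The longest run was that of the 10 windows at the T cell receptor alpha locus, between Gm36448 and Dad1, at 0.68, 0.72, 0.74 and 0.63. The longest run without such segments, 7 windows between Immp2l and Dnajb9 on chromosome 12, scored 1.22, 1.96, 1.25 and 1.69. A run of 4 between Myc and Gsdmc, which holds the Gm30113 promoter, scored 1.29, 0.87, 0.38 and 0.84. Another of 4 between Fat3 and Chordc1 scored 1.19, 1.07, 0.27 and 0.77.

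Other annotated features occurred in 1080 desert windows (26.7%), and 2961 held none. A lncRNA gene lay in 499 desert windows (12.3%, against 27.6% of windows with genes), a pseudogene in 468 (11.6% against 16.3%), and a small nuclear or nucleolar RNA gene in 119. Desert windows with a lncRNA scored -3.34, -3.30, -3.55 and -3.39, and those without -3.29, -3.26, -3.16 and -3.02. Windows with a lncRNA thus scored no higher in any profile. Windows with a pseudogene scored -3.19, -3.15, -3.05 and -2.92, against -3.31, -3.28, -3.23 and -3.08 without, slightly higher in all 4.

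The comparison of dTAG with control asks whether loss of YY1 alters replication timing. Averaged over deserts, dTAG lay slightly above control in both replicate numbers, by 0.0364 in the first and 0.1425 in the other. The desert mean was -3.25 ± 0.065 in control and -3.16 ± 0.140 in dTAG (SD, n = 2 each), a difference of 0.0895 (exact permutation test over profiles, two-sided, p = 0.667; 2 profiles against 2 cannot go below 0.333). This is within the spread between profiles of a group, and without dTAG 2 the difference was -0.01. Windows with genes had differences of -0.0191 and -0.0415. The gap between deserts and windows with genes was narrower in dTAG by 0.0555 and 0.184 (exact permutation test, p = 0.667), and leaving out a profile gave -0.15 without control 1 and -0.21 without dTAG 2. Over all autosomal windows the mean difference was 0.0038, which normalisation holds near 0. The replicate numbers themselves also differed: deserts were 0.0919 and 0.198 higher in replicate number 2 than 1 (control, dTAG), and windows with genes differed by -0.44 and -0.46. All autosomal windows differed by -0.42 and -0.41, as the 2 numbers carry different sets of values, so these raw differences mix scale with timing. With all profiles brought to a common distribution the desert means were -3.49, -3.45, -3.02 and -2.88 in control 1, dTAG 1, control 2 and dTAG 2.

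Window by window, limma called 0 of the 4041 desert windows (Benjamini-Hochberg adjusted p under 0.05 over all 51425 windows), and the background was 0% of all windows as well. At an unadjusted p under 0.05 limma found 21 desert windows (0.520%) and 500 windows in all (0.972%). The median standard error of a desert window was 0.467 score units. Differences well above it were not called either, such as 1.30 in a window between Serpinb8 and Cdh7 and -1.47 in a window between Trim52 and Slitrk1. The absence of calls therefore does not show that differences were small. With a trended and robust variance limma again called 0, with 3 desert windows (0.0742%) at an unadjusted p under 0.05, against 0.832% of all windows. Only with the replicate number as a block as well did limma call 42 desert windows, 35 higher with dTAG (0.866%, background 0.906%) and 7 lower (0.173%, background 1.94%).

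Without a test, the direction of the larger differences differed between deserts and windows with genes. Both dTAG profiles lay 0.5 or more above both controls in 39 desert windows (0.965%), where the background over all autosomal windows was 0.497%. They lay 0.5 or more below in 9 desert windows (0.223%), where the background was 1.05%. In windows with genes the counts were 72 higher (0.257%) and 346 lower (1.24%). The scale moved the count of 72: with all profiles brought to one distribution windows with genes gave 149 higher and 459 lower and deserts 31 and 11, and with each profile centred on its median 162 and 459 against 33 and 10. At any size, 451 desert windows had both dTAG profiles above both controls (background 10.9%, deserts 11.2%) and 187 had both below (background 8.27%, deserts 4.63%). The higher share at any size is near the background. Neighbouring windows share reads through smoothing, so the 39 windows form only 15 runs in 12 deserts, and the 9 form 2 runs in 2 deserts. With 3 profiles the criterion is easier to meet: the counts of higher and lower desert windows were 560 and 218 without control 1, 412 and 163 without dTAG 1, 136 and 88 without control 2, and 163 and 55 without dTAG 2.

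The level of the windows moved with this count. Desert windows with a mean score above -2 numbered 483 and had differences of 0.15 and 0.51 in the 2 replicate numbers, with 18 windows at 0.5 or more above and 0 below. The 3558 at or below -2 had differences of 0.02 and 0.09, with 21 above and 9 below. The 626 of these with a mean over -3 held 17 of the 21 and 6 of the 9. In the 2202 from -4 to -3 the differences were -0.004 and 0.05, with 3 above and 3 below. The 730 at or below -4 had 1 above and 0 below. Windows with genes above -2 (22453) had differences of -0.02 and -0.04, with 50 above and 268 below, and those at or below -2 (5512) had -0.03 and -0.06, with 22 above and 78 below. The bands use the mean of all 4 profiles, so dTAG enters both sides. Differences were also larger in 1 replicate number: the median size of a difference in desert windows was 0.181 in replicate number 1 and 0.351 in replicate number 2. The part that this plays was not tested.

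The 39 higher windows averaged -2.40 and -2.34 in control 1 and 2 and -1.58 and -1.34 in dTAG 1 and 2, a direction fixed by how they were picked. A run of 7 windows over 400 kb between Ankrd7, an ankyrin repeat gene, and Kcnd2, a potassium channel gene, scored -2.04 and -1.82 in control 1 and 2 and -0.93 and -0.96 in dTAG 1 and 2. A run of 6 windows over 400 kb between Hace1, a ubiquitin ligase, and Grik2, a glutamate receptor, scored -3.09 and -2.84 in the controls and -2.16 and -1.78 with dTAG. In 2 windows between Serpinb8 and Cdh7 the controls were at -3.08 and -2.28 and the dTAG profiles at -1.77 and -1.10. In 4 windows between Cntn5, a contactin, and Jrkl they were at -2.17 and -2.21 against -1.46 and -1.08. In 35 of the 39 windows both dTAG profiles were still below 0, that is late. Between Immp2l and Dnajb9, 2 windows at the edge of the early run averaged -0.09 and -0.07 in the controls and 0.82 and 0.59 with dTAG.

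The window with the Gm6602 promoter, in the desert Prmt6 to Amy2b, scored -2.44 and -2.97 in control 1 and 2 and -1.94 and -1.61 in dTAG 1 and 2. It is one of the 39 higher windows, so a lack of overlap between the groups was fixed by how it was picked. All 4 values are late. None of the 18 windows with a microRNA gene was among the 39 or the 9. The window of miR-3961 came near, at -2.95 and -2.15 in control 1 and 2 against -2.19 and -1.47 in dTAG 1 and 2, where the dTAG 1 value lay below control 2.

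Of the 9 lower windows 7 lie in 1 desert. Between Trim52 and Slitrk1, an adhesion gene of neurons, 7 windows over 350 kb scored -2.62 and -1.66 in control 1 and 2 and -3.44 and -3.49 in dTAG 1 and 2. The other 2 lie between Frg1 and Triml1 and scored -2.74 and -2.74 in the controls and -3.28 and -3.97 with dTAG. Without the desert Trim52 to Slitrk1 the count of lower windows was therefore 2.

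**Figure D4:**
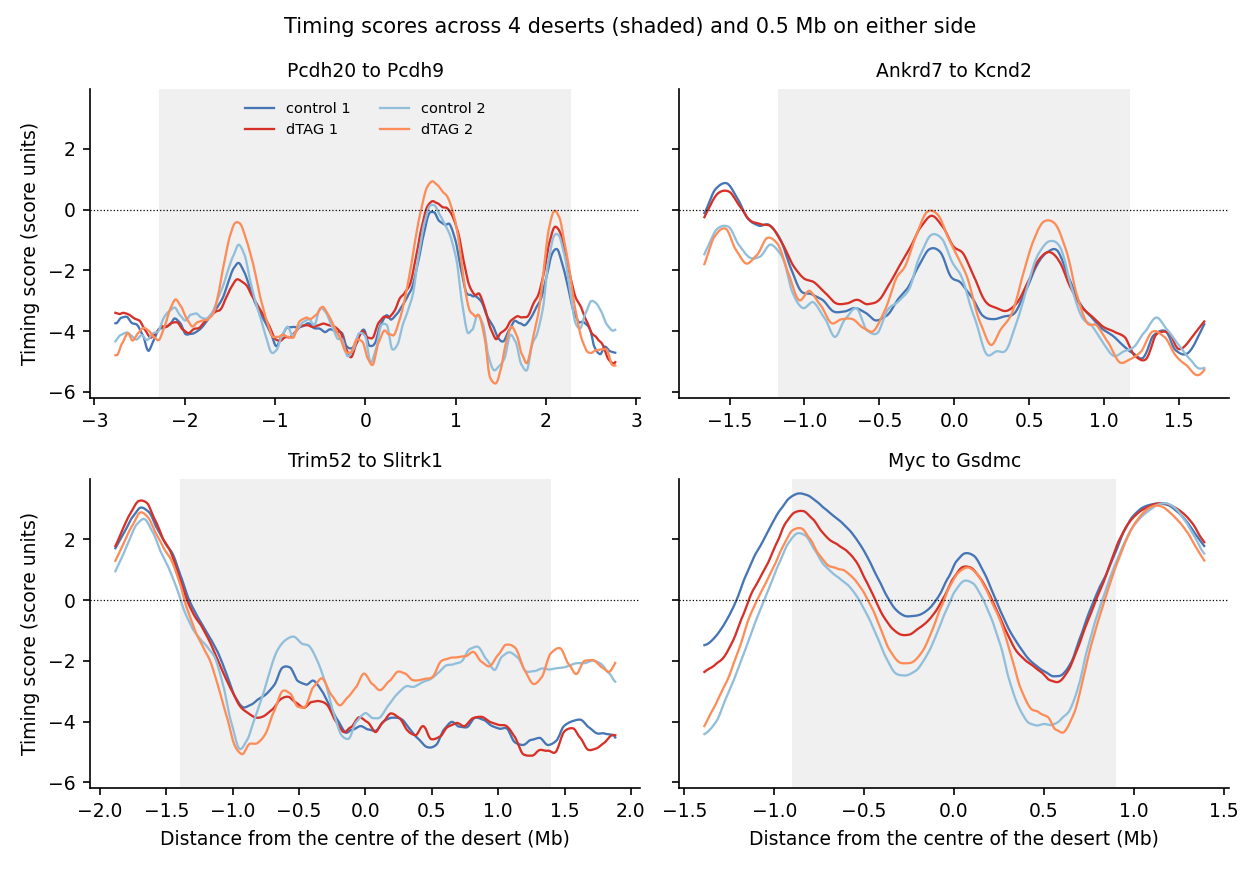
Timing score (vertical axis, score units) of the 4 profiles along 4 deserts (shaded) and 0.5 Mb on either side, against distance from the centre of the desert (horizontal axis, Mb). Many local maxima lie at similar places in the profiles. In Ankrd7 to Kcnd2 both dTAG lines lie above the controls over 400 kb near the centre, and in Trim52 to Slitrk1 a maximum of both controls is lower in both dTAG lines.

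By whole desert, 134 of 241 (55.6%) were higher with dTAG in replicate number 1 and 150 (62.2%) in replicate number 2, where 52.2% and 51.1% of all autosomal windows were. Both replicate numbers were higher in 91 deserts (37.8%) and lower in 48 (19.9%), and the same shares over all windows were not computed. More deserts were higher than lower in each number, so such an excess would be found without agreement between the numbers. The differences of the 2 replicate numbers correlated at r = 0.33 (Spearman's rho 0.26) over the 241 deserts, each pair of profiles being normalised to its own set of values. In 26 deserts (10.8%) both dTAG profiles lay above both controls and in 7 (2.90%) below. Among the 176 deserts with 5 or more windows these counts were 22 (12.5%) and 3 (1.70%). Of all autosomal windows, a smaller unit, 10.9% lay above and 8.27% below, so the share of deserts above is near the background.

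The desert with the largest mean difference among those 22 was Akr1e1, an aldo-keto reductase gene, to Klf6, a zinc finger factor, at -2.24 and -3.90 in control 1 and 2 and -1.498 and -2.22 in dTAG 1 and 2. The controls differed there by more than the groups did in replicate number 1. Cetn3, a centrin gene, to Mef2c, a muscle and neuronal transcription factor, was at -3.69 and -3.90 in the controls and -3.01 and -3.29 with dTAG, differences of 0.69 and 0.61. Ankrd7 to Kcnd2 was at -2.68 and -2.82 against -2.02 and -2.22, differences of 0.65 and 0.60. In these last 2 deserts the profiles of a group lay closer together than the groups did. Pot1a, a telomere protein, to Grm8, a glutamate receptor, was at -3.15 and -4.15 against -3.11 and -2.89, and Bod1l to Gm46911 at -4.50 and -4.91 against -4.34 and -3.86. In both the difference came from replicate number 2, with 1.26 against 0.04 and 1.05 against 0.16.

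Of the 3 deserts with both dTAG profiles lower, only Brinp1 to Cdk5rap2, a centrosome protein, differed by more than 0.25 score units, at -2.99 and -3.63 in control 1 and 2 and -3.81 and -3.93 in dTAG 1 and 2. Gm36448 to Dad1, the T cell receptor desert, differed by -0.00 and -0.22, and Gm42163 to Cenpc1, a kinetochore protein, by -0.08 and -0.05.

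**Figure D5:**
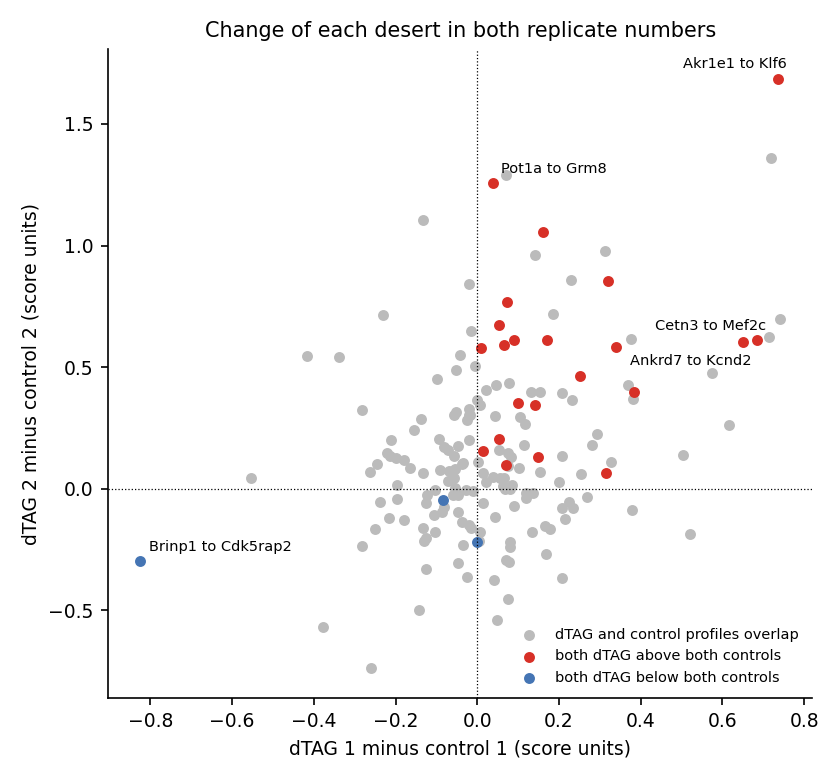
Difference of dTAG minus control per desert in replicate number 2 (vertical axis, score units) against replicate number 1 (horizontal axis, score units) for the 176 deserts with 5 or more windows; red points have both dTAG profiles above both controls (22), blue below (3), and in grey points the dTAG and control profiles overlap. Points spread more widely on the vertical axis, and Akr1e1 to Klf6 lies farthest out, at 0.74 and 1.69.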

How the data were processed

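The authors deposited 1 smoothed timing score per 5 kb position and profile; per the file headers the score was fitted with Loess and quantile normalised, and its formula is not given in the sources used here. Bowtie2, SAMtools, bedtools and mm10 are named in the submitters' processing notes. Scores were averaged over 50 kb windows with 5 or more scored positions, and distances were taken from the window midpoint to protein-coding gene bodies of the RefSeq table for GRCm38.p6. The window test was limma 3.58.1 under R 4.3.3 (group only, lmFit then eBayes, two-sided, Benjamini-Hochberg over all 51425 windows, threshold 0.05), a step tested on simulated data. Desert means were compared by exact permutation over the 4 profiles. A window counts as higher or lower where both dTAG profiles lay 0.5 or more above or below both controls, and windows up to 100 kb apart were joined into runs. Python 3.11.15, scipy 1.17.1 and matplotlib 3.10.9 served for the rest. The tests had been written for log ratios; the log base is not stated, so differences are in score units.

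Deserts were named by a rule: the 5 largest; the 3 earliest and 3 latest and, where the dTAG and control profiles did not overlap, the 5 with the highest and 5 with the lowest difference, each among deserts of 5 or more windows; and of the gene lists the 5 members beside the largest deserts and the earliest and latest of each. Deserts with shifted or early windows, those of the microRNAs shown, and Tmpo were named after their values were seen. The members and the lists were chosen with earlier results of these data known. Replicate 1 carries no number in the labels, and the labels tie no control to a dTAG profile beyond the number. Alternatives covered the distance, the genes that bound deserts, the grid, the scale, the model, the size of a shift and each profile left out.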

Additional observations from a re-analysis of the deposited data

How the results depend on the processing

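The desert mean difference (0.0895) and the narrower gap to windows with genes (0.1198) kept their direction under every change of distance, gene set, grid, chromosome ends, scale and summary tried, from 0.0609 to 0.0976 and from 0.0827 to 0.128. Leaving out 1 profile gave -0.0095 to 0.188 and -0.21 to 0.45. The difference of the desert mean turned negative without dTAG 2 (-0.0095), and that of the gap without control 1 (-0.1462) and without dTAG 2 (-0.2105). These turns come with unequal numbers of profiles per replicate number, and the cause was not tested. Counts depended on the definition. The 39 higher and 9 lower windows became 81 and 18 at 250 kb, 21 and 0 at 1 Mb, 163 and 33 for a shift of 0.25, and 1 and 0 for a shift of 1. When genes of every biotype bounded deserts only 45 windows were left, with 2 higher, 0 lower and 0 early. Without the desert with the most lower windows 2 lower ones were counted. Leaving out 1 profile gave 136 to 560 higher and 55 to 218 lower windows. The 38 early windows became 243 at 250 kb, 5 at 1 Mb, 76 without predicted genes, 25 without antigen receptor segments (an alternative chosen after seeing the data, as was leaving out the desert above), and 38 to 64 with 1 profile left out.

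The labels share only a number between control and dTAG profiles. With the replicate number as a block (replicate block) the mean differences were 0.0895 and 0.1198 and limma called 0 desert windows, with 429 (10.6%; 12.1% of all windows) at an unadjusted p under 0.05 and a smallest adjusted p of 0.231 in limma. The replicate block with trended and robust variance called 42 desert windows (35 higher, 7 lower; over all windows 0.906% higher and 1.94% lower). Deviations of same-numbered profiles from their group mean correlated at 0.83 over desert windows. With 2 profiles a group and no read counts, neither the depth behind a score nor the spread between cultures is known here.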

Other observations

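By chromosome, the mean difference of dTAG minus control over desert windows was above 0 in both replicate numbers on 10 of 19 autosomes and below 0 in both on 2. The gap between deserts and windows with genes was narrower with dTAG on 13 of 19 autosomes in replicate number 1 and on 16 in replicate number 2, and on 11 in both. Each chromosome's values come from the same 4 profiles, so the chromosomes are no replicates.

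Windows without a gene that lie nearer to genes than the deserts do stood between the classes. The 16062 such windows averaged -0.79, -0.76, -1.29 and -1.23 in control 1, dTAG 1, control 2 and dTAG 2. Both dTAG profiles lay 0.5 or more above both controls in 128 of them (0.797%) and below in 150 (0.934%). These counts varied with distance. The 3843 windows at 250 to 500 kb had 42 above and 9 below. Among desert windows, the 1777 at 500 to 750 kb had 2 above and 5 below. The 947 at 750 to 1000 kb had 16 and 4, the 976 at 1000 to 1500 kb 17 and 0, and the 341 beyond 4 and 0. More windows above than below was thus not particular to deserts.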
